A study of Homo sapiens with 2 samples.

Results

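Genes whose products handle messenger RNA or its translation were examined for ZFX occupancy in DAOY cells, a long-established line from a human medulloblastoma. They were EIF4H, UPF1, PRCC, ZC3H7B and UBAP2L, 5 genes chosen by the high scores of the ZFX peaks near their start sites. A peak belonged to a gene when any of its bases lay within 5 kb of 1 start site on hg19. This gave 6 of the 14471 peaks in the list. The study held 2 samples, each of 1 library. In the first, sheared chromatin of DAOY cells was immunoprecipitated with a rabbit polyclonal antibody against ZFX and sequenced (ChIP-seq), and in the second, sheared chromatin of the same line was sequenced as input without immunoprecipitation. The labels name no treatment for either sample. The peaks come from the ZFX library, the input was not analysed here, and there was no replicate. The depth of the library is unknown here, so no counting error can be attached to a peak. Since the genes were chosen by the scores of peaks near their start sites, scores, widths and positions are given as a description, with no test.

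ZFX is an X-linked zinc finger protein that binds many promoters and regulates transcription, and the letters AGGCCT are known as the core of its binding motif. The products of the 5 genes have varied roles in handling messenger RNA or its translation. PRCC is a proline-rich nuclear protein found with pre-mRNA splicing factors, and its gene is known for fusions with TFE3 in papillary renal cell carcinoma. EIF4H is an initiation factor that stimulates the helicase eIF4A, which unwinds the leader of a messenger before ribosomes scan it. UPF1 is the RNA helicase at the centre of nonsense-mediated decay, the pathway that destroys messengers with premature stop codons. ZC3H7B is an RNA-binding protein with CCCH zinc fingers, and UBAP2L is an RNA-binding protein needed for the assembly of stress granules.

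The promoter sequences are shown first, since the peaks lay at or beside the start sites. RefSeq lists promoter windows on GRCh38.p14 that run from 250 bases before to 50 bases after a start, and all 5 genes matched, with 1 window each for 4 genes and 3 windows for UBAP2L. The starts in that table were not placed on hg19, so the windows were not laid over the peaks base by base. All bases shown are on the plus strand, which is the strand of the 5 genes, from 5′ to 3′. Capitals mark matches, on either strand, to 6 short motifs. These were the ZFX core AGGCCT, the GC box GGGCGG bound by SP factors, the motif CCGGAA bound by ETS factors, the box CCAAT bound by NF-Y, the TATA box as TATAAA, and the E-box CACGTG bound by MYC, MAX and USF. Matches of different motifs did not overlap in the bases shown. Shown are all 250 bases before the start of EIF4H (chr7:74174106-74174355) and of UPF1 (chr19:18831709-18831958), the windows richest in CG pairs, and the last 150 bases before the start of PRCC (chr1:156767385-156767534), the window poorest in them.
EIF4H: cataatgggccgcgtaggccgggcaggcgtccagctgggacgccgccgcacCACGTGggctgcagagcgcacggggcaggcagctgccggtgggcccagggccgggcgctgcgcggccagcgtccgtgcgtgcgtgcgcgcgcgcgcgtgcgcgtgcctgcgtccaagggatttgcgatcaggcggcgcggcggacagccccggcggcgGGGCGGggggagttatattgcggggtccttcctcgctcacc
UPF1: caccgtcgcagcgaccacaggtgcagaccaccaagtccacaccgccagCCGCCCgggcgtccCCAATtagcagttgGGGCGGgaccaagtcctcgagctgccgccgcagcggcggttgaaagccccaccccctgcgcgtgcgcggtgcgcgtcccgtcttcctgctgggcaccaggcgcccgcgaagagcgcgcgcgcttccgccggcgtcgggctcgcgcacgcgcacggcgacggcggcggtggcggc
PRCC: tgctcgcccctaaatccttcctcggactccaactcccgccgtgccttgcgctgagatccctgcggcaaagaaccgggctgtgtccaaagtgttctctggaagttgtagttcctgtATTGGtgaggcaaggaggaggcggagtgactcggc

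For ZC3H7B and UBAP2L only the matches discussed with their counts are shown, each within 30 bases and with capitals used as before. The GC boxes of ZC3H7B read CCGCCC because they match on the minus strand, and the third UBAP2L line also holds a GC box. The 30-base stretches around the GC boxes of ZC3H7B lie at chr22:41301413-41301442 and chr22:41301443-41301472. Those around the E-boxes of UBAP2L lie at chr1:154220605-154220634, chr1:154220697-154220726 and chr1:154220914-154220943.
ZC3H7B, GC box 1: cccccacgccccCCGCCCttctccccaggt
ZC3H7B, GC box 2: gcgcagcccgcgCCGCCCaccccgggcgcg
UBAP2L, E-box 1: gcttccccctgaCACGTGactcaggcaggc
UBAP2L, E-box 2: ccatccgtgcgtCACGTGgtggaggcaggg
UBAP2L, E-box 3: ggaatcttatatCACGTGacagGGGCGGcg

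A ZFX peak covered the start site used here for each of the 5 genes. The choice of genes by peaks near their start sites largely fixed this, and the share over all genes was not computed. For EIF4H, UPF1, PRCC and ZC3H7B the covering peak was the strongest of the gene and the only one within 5 kb. For UBAP2L the start site used here lay under a weaker peak, and a stronger one lay farther inside the gene. RefSeq lists 3 starts for UBAP2L, and how they lie to its peaks was not tested. The midpoints of all 6 peaks, 2 of them at UBAP2L, lay on the gene side of the start site used here, by 157 to 1225 bp. Of the 6167 bp under the 5 strongest peaks together, 85.4% lay at or after the start sites used here and 900 bp before them. Such positions were not computed for other peaks of the list, so they are not shown to be particular to these genes.

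The EIF4H peak (hg19 chr7:73587943-73589520) was the widest of the 6, with 1578 bp and a score of 3154. It reached from 632 bp before to 945 bp after the start site at 73588575, with its midpoint 157 bp into the gene. Of its bases, 59.9% lay at or after the start site. It was therefore the most evenly placed of the 5 strongest peaks about its start site. In width it exceeded 98.6% of the peaks in the list.

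The UPF1 peak (hg19 chr19:18942632-18943834) covered 1203 bp with a score of 3100. It began 112 bp before the start site at 18942744 and ended 1090 bp after it, so that 90.7% of its bases lay on the gene side. The PRCC peak (hg19 chr1:156737126-156738166), the narrowest of the 5 strongest, covered 1041 bp with a score of 3100. It ran from 148 bp before to 892 bp after the start site at 156737274, with 85.8% of its bases on the gene side. The midpoints of these peaks lay 489 bp and 372 bp into UPF1 and PRCC.

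The ZC3H7B peak (hg19 chr22:41697518-41698779) was the most lopsided of those that covered a start site. It covered 1262 bp with a score of 3100, began only 8 bp before the start site at 41697526 and ended 1253 bp after it. Of its bases, 99.4% lay at or after the start site, and its midpoint lay 623 bp into the gene.

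UBAP2L differed from the other genes in having 2 peaks. The peak over its start site at 154192655 (hg19 chr1:154192539-154193113) covered 575 bp with a score of 353, from 116 bp before to 458 bp after the start site. The other (hg19 chr1:154193339-154194421) covered 1083 bp with a score of 3100 and lay wholly inside the gene, from 684 to 1766 bp after the start site. The peaks were 225 bp apart, and joined they spanned 1883 bp. RefSeq lists 3 starts for UBAP2L on GRCh38.p14, the second 106 bases and the third 455 bases after the first. The rule used 1 start site, and how the 3 RefSeq starts lie to these peaks was not tested.

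**Figure D1:**
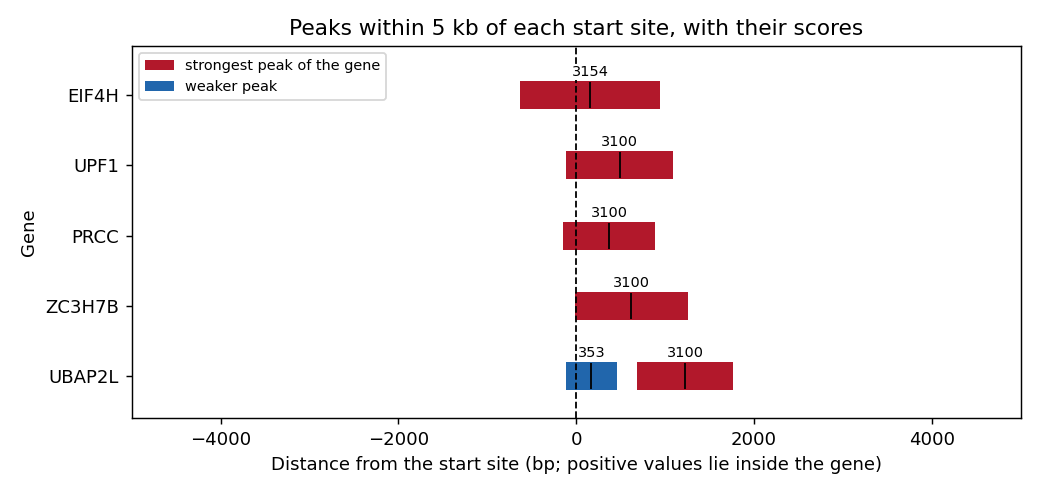
Each row is a gene, the horizontal axis is the distance from its start site in bp, bars are ZFX peaks with their scores above them, and black ticks are midpoints. All 6 midpoints lie to the right of the dashed start site line, from 157 bp for EIF4H to 1225 bp for the stronger UBAP2L peak, and the UBAP2L start site lies under the peak with the score 353.

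The scores place these peaks at the top of the list, which is how the genes were chosen. Only 31 peaks (0.214% of the list) scored 3100 or more, and each of the 5 genes had 1 of them. By its number alone EIF4H had the third highest score. The other 4 genes shared the value 3100 with 24 more peaks, so no order among these can be read. The unit of the score is not stated and 28 peaks share this value, so equal scores of 3100 do not show equal occupancy. For the same reason, the higher number of EIF4H does not show more occupancy than at the genes with 3100. The next value below 3100 was 3047. The weaker UBAP2L peak stood apart from these, since 14.3% of the list scored higher than its 353.

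In width the 5 strongest peaks, from 1041 to 1578 bp with a median of 1203 bp, were close to the 26 other peaks at 3100 or more, whose median was 1234 bp. Those 26 ran from 449 to 9036 bp, a wider range over more peaks, and it enclosed the widths of all 5. The weaker UBAP2L peak, at 575 bp, was narrower than the median of 827 bp over the 604 peaks scored within 10% of it.

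**Figure D2:**
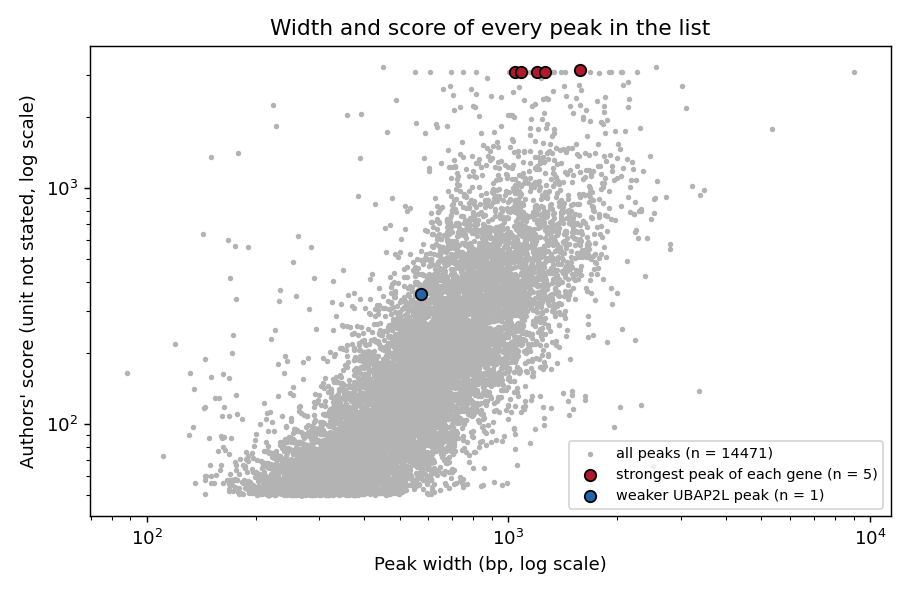
Each grey point is 1 of the 14471 peaks, with width in bp and the authors' score on log axes; red points are the strongest peak of each gene and the blue point is the weaker UBAP2L peak. The 5 red points lie between 1041 and 1578 bp in the row of points at a score of 3100 and just above it.

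Apart from the pair at UBAP2L, the member peaks had no other peak within 5 kb. This was usual, since only 39.9% of the list had one. The gap to the nearest other peak was 15.2 kb for PRCC, 31.4 kb for EIF4H, 37.7 kb for UPF1 and 78.2 kb for ZC3H7B. Over all peaks of the list the median gap was 14.4 kb, and over the 26 other peaks at 3100 or more it was 26.5 kb. A neighbour within 1 kb was found for 1 of the 5 strongest peaks, that of UBAP2L, for 8 of those 26 and for 32.1% of the list. With 5 peaks this share is not set apart from that of the list. Inside the limit of 5 kb the outermost base of a member peak was 1766 bp from its start site (UBAP2L), and the first peak outside it lay 15.4 kb before PRCC with a score of 269.

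The wider surroundings held only weaker peaks. This follows largely from the choice of the genes by score, since only 0.214% of the list scored 3100 or more. Within 500 kb of their start sites EIF4H had 37 other peaks, PRCC 25, UPF1 22, and ZC3H7B and UBAP2L 18 each. The highest score among these was 853 near EIF4H, 779 near PRCC, 529 near UBAP2L, 426 near UPF1 and 357 near ZC3H7B. The median score of these other peaks was 89.3 for EIF4H and 109 to 119 for the other 4 genes, beside a median of 109 over the list.

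The 2 members on chromosome 1 had unlike surroundings. PRCC had 9 other peaks within 100 kb, all before its start site, with scores from 87.2 to 779. The highest of them lay 38.5 kb away, and the first peak after the start site lay 187 kb away. UBAP2L had no other peak within 100 kb, with the nearest at 105 kb after and 189 kb before its start site. EIF4H had 7 other peaks within 100 kb, 4 before and 3 after its start site. UPF1 and ZC3H7B had 2 each, with scores of 56.3 or less around UPF1 and 106 or less around ZC3H7B.

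**Figure D3:**
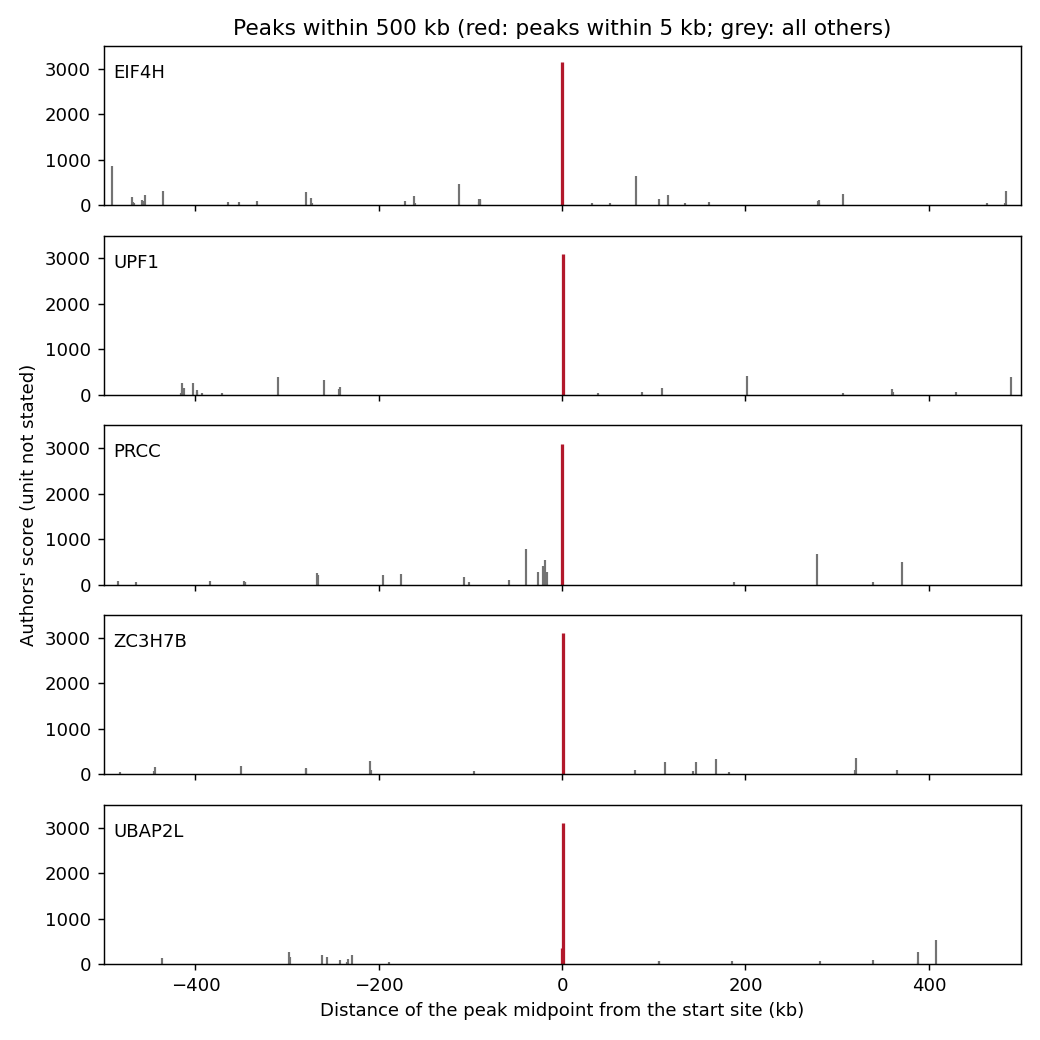
Each panel is a gene, with the distance of peak midpoints from its start site in kb on the horizontal axis and the authors' score as the height of each line. The highest red line at the centre of each panel reaches 3100 or more, which is how the genes were chosen. The weaker UBAP2L peak, with a score of 353, is also drawn in red. The grey lines of all other peaks stay at or below 853.

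The genes next to the 5 members bear on which gene a peak can be assigned to. By name and strand in the RefSeq table (GRCh38.p14), RANGAP1, which encodes the activator of the nuclear transport GTPase Ran, lies on the opposite strand to ZC3H7B, and the spans of the 2 genes overlap at the start of ZC3H7B. LTAP1 (also C1orf43) lies on the opposite strand to UBAP2L, and its span also overlaps the start of UBAP2L. Promoter windows of LTAP1 and UBAP2L share up to 242 bases, whereas those of RANGAP1 and ZC3H7B share 0. HDGF, the gene of a growth factor first found in hepatoma cells, lies before PRCC on the opposite strand without overlap. For ZC3H7B and UBAP2L, occupancy at the gene named here and at the overlapping gene on the opposite strand cannot be told apart from the position of a peak. EIF4H and UPF1 also have no overlapping neighbour at their starts in that table. The nearest gene before EIF4H is LIMK1, on the same strand, and the nearest before UPF1 is COMP, on the opposite strand. Distances to these neighbours on hg19 were not used. Whether the peaks of PRCC and UPF1 also lie near the starts of HDGF and COMP was therefore not tested. Whether the bases under each peak are exon or intron was not analysed here, since no annotation on hg19 was used.

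In base composition the promoter windows of the 5 genes ranged from middling to very rich in CG pairs. EIF4H and UPF1 had 45 CG pairs each in 300 bases, more than in 96.5% of the 35116 windows listed. UBAP2L had 37, 36 and 23 in its 3 windows, ZC3H7B had 24 and PRCC had 17, against a median of 14 over all windows. GC content was 74.0% for EIF4H, 74.3% for UPF1, 65.3% for ZC3H7B, 68.0% to 68.7% for UBAP2L and 57.0% for PRCC, and the median of all windows was 58.7%. PRCC thus lay near the middle of all promoters on both measures.

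**Figure D4:**
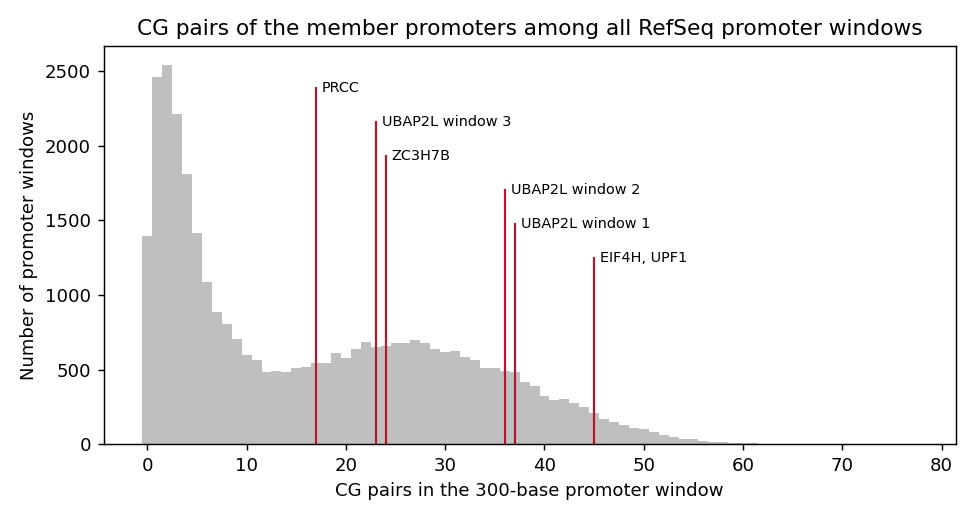
Grey bars count RefSeq promoter windows of 300 bases by their number of CG pairs, and red lines mark the windows of the 5 genes, their height serving only to place the labels. All 7 windows lie above the median of 14, from 17 for PRCC to 45 for EIF4H and UPF1.

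The core of the ZFX motif, AGGCCT, which reads the same on both strands, was in none of the 7 windows of the 5 genes and in 10.9% of all windows, or 10.4% of the 16157 windows with at least 17 CG pairs, the lowest number among the 5 genes. This says only that the letters are not in these windows, which end 50 bases after a start, whereas most bases under the peaks lay on the gene side. The GC box GGGCGG was in windows of 4 of the 5 genes and in 45.0% of all windows, or in 79.7% of those with at least 17 CG pairs. In EIF4H it began 41 bases before the start, and in UPF1 at 202 and 174 bases before it. ZC3H7B held it at 100 and 70 bases before the start, as shown above, and PRCC lacked it.

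CACGTG was in windows of 2 of the 5 genes, against 7.26% of all windows and 10.2% of those with at least 17 CG pairs. In EIF4H it began 199 bases before the start. UBAP2L held 3 separate sites in its first and second windows, which overlap, at 232 and 140 bases before the first start and 29 bases before the second. UBAP2L had 3 windows in which a match could fall, where the other genes had 1. The count over genes and the share over windows are thus unlike measures, and enrichment of CACGTG was not tested. CCAAT was found 188 bases before the start of UPF1 and, on the minus strand, 35 bases before that of PRCC, and in 34.6% of all windows, or 31.1% of those with at least 17 CG pairs. CCGGAA was found in UBAP2L only, 89 bases before its first start, and in 17.2% of all windows, or 29.1% of those with at least 17 CG pairs. TATAAA was in none of the 7 windows and in 11.5% of all windows, but in only 3.29% of those with at least 17 CG pairs. The GC box was in windows of 4 of the 5 genes, with UBAP2L counted over 3 windows. This is not set apart from the 79.7% of windows with at least 17 CG pairs that held it. None of the 6 motifs was found in all 5 genes.

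Other genes of the same pathways were examined for AGGCCT only, since their start sites on hg19 were not used here. Promoter windows were matched for 10 of 11 listed eIF4F subunits and helpers and for 8 of 10 nonsense-mediated decay genes. They were also matched for 10 of 11 stress granule genes and for all 11 CCCH zinc finger genes. Listed genes without a window could not be examined. Of the eIF4F subunits and their helpers, 1 of 15 promoter windows held it, in EIF4G1, the scaffold of the cap-binding complex. Of the nonsense-mediated decay factors 3 of 15 windows did (SMG5, SMG6 and UPF3A), of the stress granule genes 2 of 22 (UBAP2 and USP10) and of the genes for CCCH zinc finger proteins 1 of 14 (ZC3H15). Together this was 7 of 66 windows, or 10.6%, beside the 10.9% of all windows. The lists include 4 of the 5 members, none of which held the motif.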

How the data were processed

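ZFX ChIP-seq peaks of 1 DAOY library were used. Per the submitters' processing notes, Bowtie2 2.0.0 and the build hg19 were named without a role. Peak names carry the name MACS, and no source used here gives its version, threshold or control. The authors deposited a start, an end and a score per peak, with no header and no unit for the score, whose lowest value was 50. Starts were taken as counted from 0 and are printed counted from 1. Peaks overlapping 5 kb on either side of a start site were assigned to that gene, and 1 hg19 start site per gene was used. Distances, ranks and gaps were computed from the list. RefSeq promoter windows (35116, GRCh38.p14) were scanned for 6 motifs on both strands. The functions were tested on simulated data. No group comparison and no p-value was possible with 1 library. The members, gene lists and motifs were chosen with earlier results of these data known, and the named genes were all 5 members with their nearest protein-coding neighbours. Python 3.11.15, pandas 2.3.3, numpy 2.4.6 and matplotlib 3.10.9 were used.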

Additional observations from a re-analysis of the deposited data

How the results depend on the processing

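The 6 peaks within 5 kb of the 5 start sites were also 6 at 1 kb, 2 kb and 10 kb, by midpoint, and among peaks above the median score. The condition on the median score could change no count, since the lowest of the 6 scores was 353 and the median was 109. All 5 start sites lay inside a peak also with starts counted from 1 and among peaks above the median score, but 0 lay within 100 bp of a peak midpoint, a narrower condition by construction. Joining peaks at most 1 kb apart changed UBAP2L alone among the 5 genes, to a width of 1883 bp and a midpoint 825 bp after the start site. AGGCCT was in windows of 0 genes also when followed by AG and in the 250 bases before the start. Both counts were fixed in advance by its absence from the whole windows. The shorter GGCCT, present in 56.2% of all windows, was in windows of 2 genes. No paired analysis was possible because each group has 1 library. Depth is unknown, so weaker peaks near these genes may have been missed.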
